A study of Homo sapiens with 14 samples.

Results

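The genes described here are long intergenic noncoding RNA genes, the loci that carry a LINC symbol, as far as they were expressed in K562 cells. Members were chosen by their level: the symbol is LINC followed by 5 digits, the gene lies on an autosome, and at least 1 of the 6 group means in the deposited table exceeds 2 on its log2 scale. A value of 2 on that scale, which is scaled to library depth, stands for between 23.4 and 29.6 reads per library at the depths of the 6 groups. Of 871 such autosomal symbols, 119 were above this level and 752 were not, in a table of 35805 gene rows. 1 further symbol was left out by the rule.

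Long intergenic noncoding RNAs are transcribed by RNA polymerase II, usually spliced and polyadenylated like messenger RNA, and translated little or not at all. Many are found in few cell types and at lower levels than messenger RNA, and their start sites and exons often contain sequence derived from transposable elements. The HUSH complex, which contains TASOR, MPP8 and Periphilin, silences young retrotransposons and other intron-poor transcribed DNA through trimethylation of histone H3 lysine 9. In HUSH2 the paralogue TASOR2 takes the place of TASOR.

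The study measured total RNA in K562, a cell line grown from a chronic myeloid leukaemia with erythroid features, in which dCas9-KRAB, an inactive Cas9 joined to a repressor domain, represses a gene at the site that a guide RNA names. All 6 groups carry dCas9-KRAB. The controls were untransduced cells without a guide (2 libraries) and cells with sgAAVS1, a guide to a safe-harbour locus (3 libraries). The knockdowns carried guides to TASOR (2 libraries, sg1 and sg2), TASOR2 (3 libraries, sg1 to sg3), MPP8 (2 libraries) or PPHLN1, the gene of Periphilin (2 libraries), each library with its own guide, and RNA from transduced cells was collected at day 7. The deposited table holds 1 mean log2 value per group, so there is no SD, no n and no test over libraries, and a difference between guides cannot be seen. By its low values, the TASOR2 column is a mean of 2 libraries although 3 are labelled.

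The geometric mean depth of a group was between 5857938 and 7406967 reads per library, and the table gives no depth of single libraries. The 4 targeted transcripts were each lowest in their own knockdown: FAM208A, the table's name for TASOR, had a mean of 3.29 there and 7.22 in sgAAVS1, FAM208B (TASOR2) 6.03 and 7.45, MPHOSPH8 (MPP8) 4.70 and 6.52, and PPHLN1 5.27 and 6.57. The knockdowns were thus partial and unequal in size. All 11 erythroid marker genes of K562 were above 2 in every group, between 4.53 and 8.79. Of 19 marker genes of other cell types, 7 were above 2 in all groups, namely CD3D, EPCAM, KRT19, CD68, PECAM1, COL1A1 and COL1A2. ALB and APOA1 of hepatocytes, CD2, MS4A1, CDH5 and VWF were at or below the level of 3 reads over a group. The part of these markers in the results was not tested.

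RefSeq (GRCh38.p14) gives promoters for some of the members, from 250 bases before the start to 50 bases after it: 80 were matched by symbol, and 63 of these had their start within 1 kb of the start in the table. The 4 shown here belong to the gene with the largest difference from sgAAVS1 of all members (LINC00665), its neighbour in the same zinc finger stretch (LINC01534), the member past the rule in TASOR and PPHLN1 knockdowns (LINC01124), and another that passed in PPHLN1 (LINC01556). They lie at chr19:36331669-36331968 on the minus strand, chr19:36687400-36687699 on the minus strand, chr2:170714518-170714817 on the minus strand and chr6:28943534-28943833 on the plus strand. Each is written 5′ to 3′ along the gene. Capitals mark matches on either strand to the GC box GGGCGG, the CCAAT box CCAAT and the NRF1 core GCATGCGC.
LINC00665: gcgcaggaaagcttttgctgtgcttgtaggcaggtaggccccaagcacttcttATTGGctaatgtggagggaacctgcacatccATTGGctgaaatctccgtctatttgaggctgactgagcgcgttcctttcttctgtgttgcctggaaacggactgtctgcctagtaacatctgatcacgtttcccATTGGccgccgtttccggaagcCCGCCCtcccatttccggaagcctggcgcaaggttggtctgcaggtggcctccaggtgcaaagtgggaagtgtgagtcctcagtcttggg
LINC01534: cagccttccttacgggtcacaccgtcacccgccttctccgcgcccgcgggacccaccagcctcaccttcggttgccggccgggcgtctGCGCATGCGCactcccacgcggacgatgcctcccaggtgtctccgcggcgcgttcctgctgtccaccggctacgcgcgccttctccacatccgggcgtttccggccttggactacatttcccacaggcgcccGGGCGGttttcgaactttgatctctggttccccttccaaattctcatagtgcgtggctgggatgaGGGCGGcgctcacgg
LINC01124: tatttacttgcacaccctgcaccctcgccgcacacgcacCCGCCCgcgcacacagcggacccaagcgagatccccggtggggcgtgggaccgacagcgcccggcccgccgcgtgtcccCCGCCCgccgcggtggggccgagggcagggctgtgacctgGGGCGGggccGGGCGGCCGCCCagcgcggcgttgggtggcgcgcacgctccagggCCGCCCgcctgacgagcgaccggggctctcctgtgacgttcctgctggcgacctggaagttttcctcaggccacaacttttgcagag
LINC01556: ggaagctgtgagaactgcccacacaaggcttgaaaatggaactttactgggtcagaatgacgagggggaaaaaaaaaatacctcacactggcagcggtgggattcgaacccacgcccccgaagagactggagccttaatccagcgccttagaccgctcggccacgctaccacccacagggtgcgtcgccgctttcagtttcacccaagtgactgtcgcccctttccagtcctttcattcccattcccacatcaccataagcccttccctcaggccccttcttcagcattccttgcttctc

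The LINC00665 window holds 1 GC box and 3 CCAAT boxes, and the LINC01124 window 6 GC boxes. The LINC01534 window has 2 GC boxes and a palindrome that is read as the NRF1 core on both strands, so its 2 matches overlap. None of these motifs is in the LINC01556 window. Over the 63 windows, 50.8% held a GC box, against 45% of all 35116 RefSeq promoters of the same length. A CCAAT box was in 38.1% against 34.6%, the NRF1 core in 3.17% against 3.05%, a TATA box (TATAAA) in 9.52% against 11.5% and a GATA site (AGATAA) in 12.7% against 10.3%. The median GC content of the windows was 60% against 58.7%, and the median number of CpG pairs 16 against 14. At least 10 CpG pairs were in 68.3% of the windows, against 56.4% of all promoters. A match is a run of letters, not a site shown to be used.

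Members were spread over all 22 autosomes, from 11 each on chromosomes 1, 2 and 7 to 1 on chromosome 16. The genes span a median of 12.8 kb, and their exons together a median of 2922 bases in GENCODE release 29. All 119 were found in RefSeq, which now lists 112 as long noncoding RNA, 6 as protein-coding and 1 as a transcribed pseudogene, and 24 under another symbol. The 6 protein-coding genes are LINC00116 (MTLN, a mitochondrial microprotein), LINC00493 (SMIM26) and LINC00998 (SMIM30), both small membrane proteins, LINC00094 (BRD3OS), LINC00176 (C20orf204) and LINC01125 (C2orf92). None of these 6, nor the pseudogene LINC00694 (C3orf86P), passed the rule described next in any knockdown. LINC00998 had means from 5.92 to 6.14 and LINC00493 from 4.43 to 4.64, both a narrow range, whereas LINC00176 ranged from 2.31 in untransduced cells to 3.15 in TASOR.

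The mean over the 6 groups ran from 1.38 to 8.64 with a median of 3.76, so most members were low: 54 were above 4 and 16 above 6. All 6 means were above 2 in 100 members, 2 to 5 of them in 16, and a single mean in 3. LINC00657 was the highest, and is better known as NORAD, an abundant cytoplasmic RNA that binds Pumilio proteins. Its means were 8.54 in untransduced cells, 8.58 in sgAAVS1, 8.57 in TASOR, 8.67 in TASOR2, 8.76 in MPP8 and 8.69 in PPHLN1. The 6 groups thus lay within 0.22 of each other. LINC00963 followed with a mean over groups of 8.21, then LINC01287 (7.75), LINC00969 (7.18), LINC00958 (6.97), LINC00667 (6.82), LINC00689 (6.61), LINC00346 (6.56), LINC01029 (6.49) and LINC00649 (6.29). These values are not corrected for length. Per kilobase of exon, the log2 level was 6.22 for LINC00657, 5.89 for LINC00674, 5.44 for LINC00958, 5.43 for LINC01287 and 5.43 for LINC01029, and 4.49 for LINC00963, which has long exons. The order of LINC00958, LINC01287 and LINC01029 per kilobase cannot be told, as their means differ by less than counting error.

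Several well expressed members hardly moved. LINC00938 had means of 5.81 in untransduced cells, 5.76 in sgAAVS1, 5.85 in TASOR, 5.76 in TASOR2, 5.82 in MPP8 and 5.81 in PPHLN1, a range of 0.09. LINC00969 (now MIR570HG) varied by 0.12, LINC00152 by 0.14, LINC01089 by 0.16, LINC00221 by 0.17 and LINC00958 by 0.19. LINC00152 is CYTOR, a cytoplasmic RNA studied in tumours, which has a near-identical copy on the same chromosome, so reads may be shared between the pair. Over all members the range across groups was under 0.5 in 50, from 0.5 to 1 in another 50, and 1 or more in 19. Its median was 0.61, against 0.36 for all 13699 tested genes with a mean above 2, but counting error is larger at the low levels where most members lie.

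The level chose the members, so the genes at its edge owe their place to their highest group. Just inside were LINC01388 with a highest mean of 2.01 (untransduced), LINC01376 with 2.13 (TASOR), LINC01556 with 2.14 (PPHLN1), LINC00853 with 2.15 (PPHLN1) and LINC00957 with 2.17 (MPP8). Just outside were LINC01134 with 1.93 (TASOR2), LINC01019 with 1.83 (untransduced), LINC00504 with 1.82 (PPHLN1), LINC01237 with 1.81 (PPHLN1) and LINC00449 with 1.75 (MPP8). A member that entered by 1 group only had to be high there, which applies to LINC01376 and LINC01556 below. LINC00239 was above 2 only in TASOR and PPHLN1, so it had to be high in at least 1 of them.

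Differences from sgAAVS1 are given as log2 differences, followed by ± and the half-width of the 95% interval for counting error alone. A gene passed the rule of size if the difference was at least 1, the higher mean was above 0, and the interval did not include 0. A smaller rule with a difference of at least 0.5 is also used, and was added after the values were seen. The knockdowns share the sgAAVS1 mean, so an error in that mean enters every comparison with it. In bulk RNA, fewer cells with a transcript and less of it per cell cannot be told apart.

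**Figure D1:**
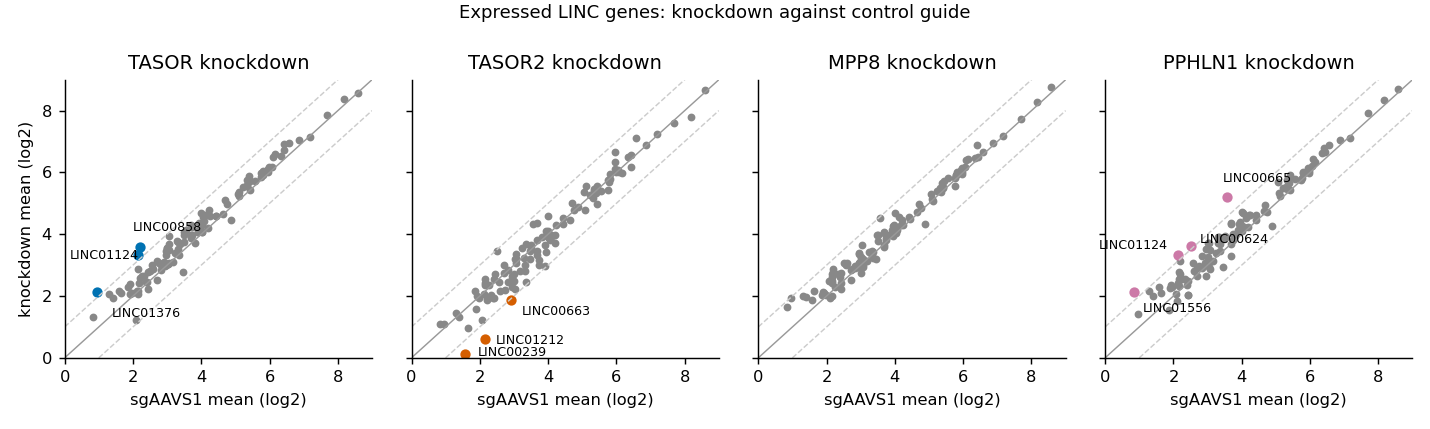
Group means of the 119 expressed LINC genes (log2) in each knockdown, on the vertical axis, against the sgAAVS1 mean, on the horizontal axis. The solid line marks equality, the dashed lines a difference of 1, and coloured points are the genes past the rule of size: 3 in TASOR, 3 in TASOR2, none in MPP8 and 4 in PPHLN1.

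In the TASOR knockdown 3 members were higher by the rule and none lower (2.52% and 0% of members), beside 0.599% higher and 0.0657% lower among the 13699 tested genes with a mean above 2. All 3 were low genes. Among the 58 members whose highest mean was at most 4, the 3 were 5.17%, against 2.54% of tested genes at that level. LINC01376, among the 3, was a member by its TASOR mean alone, so it had to be high there. Low genes of any kind thus passed more often than the whole. In the PPHLN1 knockdown 4 were higher and none lower (3.36% and 0%), beside 1.35% and 0.204% of tested genes, and at the lower level 5.17% against 4.67%. In the TASOR2 knockdown the direction was the opposite, with none higher and 3 lower (2.52%), beside 1.07% higher and 1.07% lower, and 5.17% against 4.88% at the lower level. In the MPP8 knockdown no member passed in either direction, beside 0.861% and 0.0365%. Untransduced cells also had none, beside 0.226% and 0.0584%. LINC01556, among the 4 in PPHLN1, was a member by its PPHLN1 mean alone. The PPHLN1 and TASOR2 shares at the lower level are close to those of other genes. The TASOR share rests on 3 genes and is not read as an excess.

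**Figure D2:**
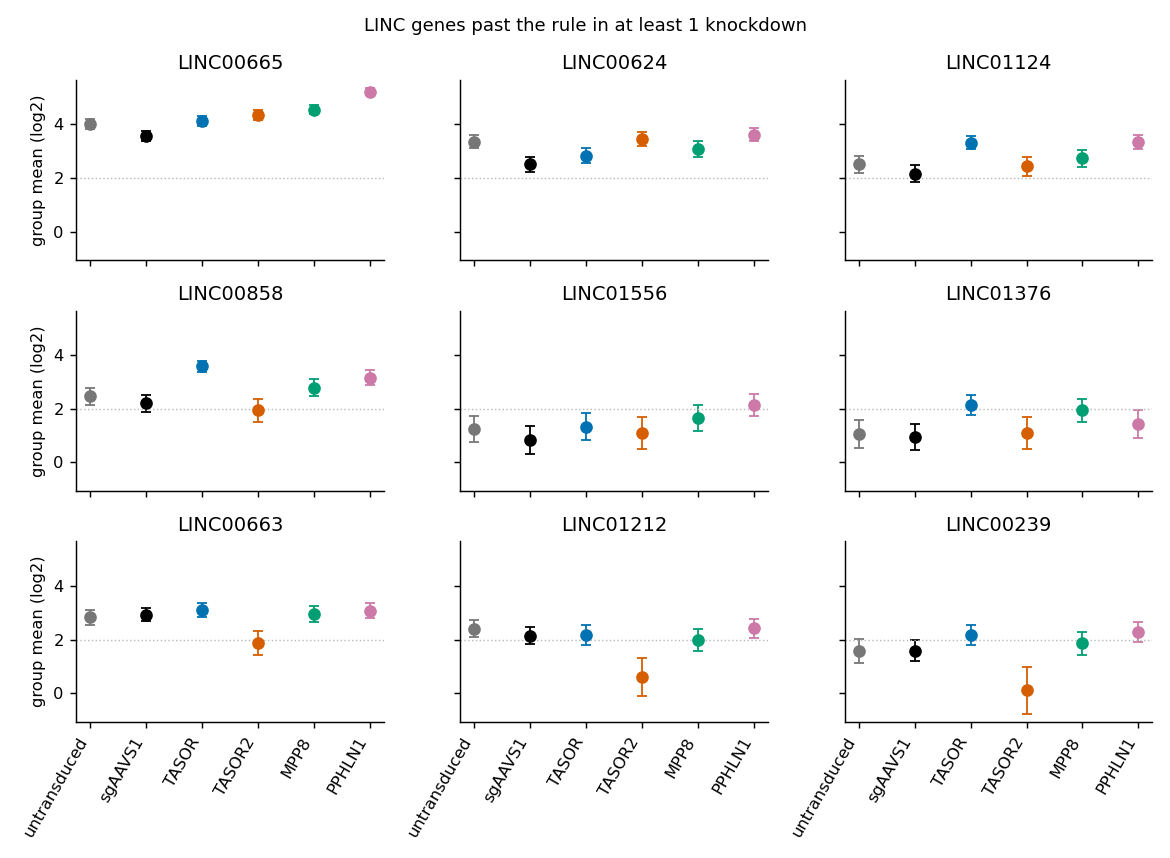
Group means (log2) of the 9 LINC genes past the rule of size in at least 1 knockdown, in the 6 groups. Bars are 95% intervals for counting error alone, and the dotted line is the level of 2 that chose the genes. LINC00665 is highest in PPHLN1 at 5.21, and LINC01212 and LINC00239 are lowest in TASOR2 at 0.61 and 0.11.

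LINC00665 (chr19:36313067-36331718, minus strand, listed as a lincRNA) is a noncoding transcript within a stretch with many zinc finger genes, and has been studied in tumours. Its means were 4.02 in untransduced cells, 3.56 in sgAAVS1, 4.12 in TASOR, 4.33 in TASOR2, 4.54 in MPP8 and 5.21 in PPHLN1. PPHLN1 was highest, clear of MPP8, and sgAAVS1 lowest, with untransduced cells between. The difference from sgAAVS1 was 1.66 ± 0.23 in PPHLN1, 0.98 ± 0.26 in MPP8, 0.78 ± 0.27 in TASOR2 and 0.57 ± 0.27 in TASOR, and untransduced cells were 0.46 ± 0.27 above sgAAVS1 too. Against untransduced cells the PPHLN1 difference was 1.20, still past the rule, and the others were 0.52, 0.31 and 0.11. So only in PPHLN1 did LINC00665 pass against both controls, and a part of each difference from sgAAVS1 is also there without any knockdown.

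LINC00858 (chr10:84279980-84294659, plus strand) gave the largest TASOR difference. It stood at 2.47 in untransduced cells, 2.20 in sgAAVS1, 3.57 in TASOR, 1.95 in TASOR2, 2.79 in MPP8 and 3.15 in PPHLN1. TASOR and PPHLN1 were high, and TASOR2 was no higher than the controls. The TASOR difference was 1.38 ± 0.38 from sgAAVS1 and 1.11 from untransduced cells, and PPHLN1 was 0.95 ± 0.42 above sgAAVS1. Its nearest expressed gene, CCSER2, lies 33927 bp away on the same strand and had differences of 0.09 in TASOR and 0.54 in TASOR2.

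LINC01124 (chr2:170712451-170714567, minus strand) lies head to head with SP5, a zinc finger transcription factor gene and Wnt target, whose start is 784 bp away. Its means were 2.50 in untransduced cells, 2.15 in sgAAVS1, 3.31 in TASOR, 2.43 in TASOR2, 2.73 in MPP8 and 3.33 in PPHLN1. It was past the rule in TASOR (1.16 ± 0.40) and PPHLN1 (1.19 ± 0.41), while TASOR2 lay with the controls. SP5 itself was 0.74 ± 0.46 higher in TASOR, 0.76 ± 0.48 in PPHLN1 and 0.63 ± 0.49 in MPP8, and at -0.58 ± 0.64 in TASOR2. Against untransduced cells LINC01124 was 0.81 higher in TASOR and 0.83 in PPHLN1, which is short of the rule. With median centring the differences from sgAAVS1 were 0.96 and 0.97.

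LINC01376 (chr2:18986451-19346748, minus strand) is a long locus with no expressed gene nearer than 396887 bp. It had means of 1.07 in untransduced cells, 0.95 in sgAAVS1, 2.13 in TASOR, 1.08 in TASOR2, 1.94 in MPP8 and 1.42 in PPHLN1. TASOR and MPP8 were high and the other 4 groups low, with wide intervals. The TASOR difference was 1.18 ± 0.62 from sgAAVS1 and 1.06 from untransduced cells. The MPP8 difference, 0.99 ± 0.65, fell just short of the rule. Centring every group on its median took the TASOR difference of LINC01376 to 0.98, and quantile normalization to 0.91.

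LINC01556 (chr6:28943877-28944537, plus strand) and LINC00624 (chr1:147258885-147517875, minus strand) completed the PPHLN1 set. LINC01556 had means of 1.25 in untransduced cells, 0.84 in sgAAVS1, 1.33 in TASOR, 1.09 in TASOR2, 1.64 in MPP8 and 2.14 in PPHLN1, and was 1.30 ± 0.65 above sgAAVS1 but 0.89 above untransduced cells. LINC00624 had 3.35 in untransduced cells, 2.51 in sgAAVS1, 2.82 in TASOR, 3.45 in TASOR2, 3.08 in MPP8 and 3.61 in PPHLN1. The sgAAVS1 mean was the lowest of the 6. The PPHLN1 difference of 1.10 ± 0.37 became 0.25 against untransduced cells, which were themselves 0.85 ± 0.36 above sgAAVS1. LINC00624 overlaps CHD1L, a chromatin remodeller gene on the opposite strand with a sgAAVS1 mean of 7.03. Reads of the pair are separable only if counting used the strand, and no source used here says whether it did. CHD1L differed by 0.15 ± 0.09 in PPHLN1. With median centring LINC00624 was 0.88 higher in PPHLN1, short of the rule.

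The 3 members lower in the TASOR2 knockdown were LINC01212, LINC00239 and LINC00663. LINC01212 (chr3:69999577-70015318, plus strand) is SAMMSON, an RNA known from melanoma that lies near MITF, the melanocyte transcription factor gene. Its means were 2.41 in untransduced cells, 2.15 in sgAAVS1, 2.18 in TASOR, 0.61 in TASOR2, 1.98 in MPP8 and 2.42 in PPHLN1. TASOR2 alone was low, by -1.54 ± 0.78 from sgAAVS1 and -1.80 from untransduced cells. MITF, 31240 bp away, had a difference of 0.14 ± 0.12 in TASOR2.

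LINC00239 (chr14:101730437-101732522, plus strand) stood at 1.56 in untransduced cells, 1.58 in sgAAVS1, 2.17 in TASOR, 0.11 in TASOR2, 1.86 in MPP8 and 2.29 in PPHLN1. TASOR2 was lowest, by -1.47 ± 0.96 from sgAAVS1 and -1.45 from untransduced cells, and TASOR and PPHLN1 were highest. TASOR and PPHLN1 gave its only means above 2, by which it became a member. A table row on the opposite strand overlaps LINC00239, so its reads are uncertain in the same way as those of LINC00624. PPP2R5C, a phosphatase subunit gene 29276 bp away, was 0.37 ± 0.05 higher in TASOR2. LINC00663 (chr19:19757366-19776423, minus strand), in another zinc finger region of chromosome 19, had 2.83 in untransduced cells, 2.92 in sgAAVS1, 3.11 in TASOR, 1.86 in TASOR2, 2.95 in MPP8 and 3.08 in PPHLN1. TASOR2 was again the only low group, at -1.07 ± 0.51 from sgAAVS1 and -0.98 from untransduced cells, the latter short of the rule, as was its -0.99 after quantile normalization. It overlaps another row on its own strand, so reads could be split between them.

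With untransduced cells as the control, 2 members were higher in TASOR (1.68%, beside 0.482% of tested genes with a mean above 2). In PPHLN1 1 was higher (0.84%, beside 0.839%) and in MPP8 none (beside 0.599%), and 6 were lower in TASOR2 (5.04%, beside 1.63%). In TASOR2, 5.17% of members with a highest mean of at most 4 were lower, against 7.33% of tested genes at that level. Above 4 the shares were 4.92% against 0.416%, without a match for level within that range. Those that passed the rule against both controls were LINC00858 and LINC01376 in TASOR (0.248% of tested genes passed both), LINC01212 and LINC00239 in TASOR2 (0.839%) and LINC00665 in PPHLN1 (0.781%). LINC01376 was a member by its TASOR mean alone, so it had to be high there. The shares for both controls are not matched for level. The other 4 members lower in TASOR2 than in untransduced cells were LINC00896 (-1.23), LINC00957 (-1.18), LINC00173 (-1.09) and LINC00656 (-1.07). They lay at -0.94, -0.67, -0.75 and -0.50 from sgAAVS1.

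The smaller rule showed shifts spread over more members. In TASOR 19 were higher and 2 lower (16% and 1.68%), beside 5.49% and 0.358% of tested genes with a mean above 2. In PPHLN1 21 were higher and 2 lower (17.6% and 1.68%), beside 6.09% and 0.693%. In MPP8 10 were higher and 1 lower (8.4% and 0.84%), beside 3.57% and 0.336%. In TASOR2 6 were higher and 15 lower (5.04% and 12.6%), beside 6.48% and 5.44%. Untransduced cells had 5 higher and none lower, beside 2.54% and 0.453%. Counting error is smaller among the 61 members with a highest mean above 4, but members and tested genes were not matched for level within that range. There 8 members were higher in TASOR (13.1%, against 2.21% of tested genes at that level), 6 in PPHLN1 (9.84% against 3.19%), and 4 lower in TASOR2 (6.56% against 2.85%). In TASOR2 5 of the 61 were higher (8.2% against 5.5%), so better expressed members went both ways there. Among the 58 lower members the shares were close to those of other genes in TASOR (19% higher against 20.9%) and for lower calls in TASOR2 (19% against 17.6%). There 25.9% were higher in PPHLN1 against 19.7%, and 1.72% higher in TASOR2 against 11.1%. In MPP8 the shares higher were 13.8% against 11.9% among the lower members, and 3.28% against 1.8% among those above 4.

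The 8 better expressed members higher in TASOR were LINC00909 (0.68), LINC01547 (0.63), LINC00638 (0.58), LINC00263 (0.58), LINC00665 (0.57), LINC00885 (0.52), LINC00526 (0.52) and LINC00884 (0.51). LINC00909 (chr18:74591774-74598508, minus strand) was singled out after its values were seen, because it passed the smaller rule in each knockdown. Its means were 3.89 in untransduced cells, 4.003 in sgAAVS1, 4.69 in TASOR, 4.58 in TASOR2, 4.68 in MPP8 and 4.73 in PPHLN1. Both controls were low and the 4 knockdowns close to each other, 0.68 ± 0.22, 0.58 ± 0.24, 0.68 ± 0.23 and 0.73 ± 0.23 above sgAAVS1. Its start is 638 bp from that of ZNF407, a zinc finger gene it overlaps on the opposite strand, which differed by 0.08 to 0.20 in the knockdowns. Reads of LINC00909 are thus uncertain in the same way as those of LINC00624. LINC00665 also passed the smaller rule in each knockdown, and the pair are 1.68% of members, beside 0.474% of tested genes with a mean above 2.

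Some members went against the trend of their group. In TASOR2, LINC01128 had a mean of 6.66 against 5.97 in sgAAVS1 and 5.90 to 6.17 in the other groups, a difference of 0.69 ± 0.12. It overlaps LINC00115, also a member, on the opposite strand, which was 0.51 lower in TASOR2 (-0.51 ± 0.38). LINC00641 was 0.66 ± 0.26 higher in TASOR2, with a mean of 4.35 there and 3.69 in sgAAVS1. Lower members were few elsewhere: LINC01355 differed by -0.56 ± 0.22 in MPP8 and -0.61 ± 0.22 in PPHLN1, LINC01087 by -0.68 ± 0.35 in TASOR and -0.52 ± 0.36 in PPHLN1, and LINC00243 by -0.84 ± 0.61 in TASOR and -0.84 ± 0.65 in TASOR2. LINC01355 and LINC01087 are among the members with least GC, at 36.4% and 35.4% of the transcript.

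Most members stayed near sgAAVS1: within 0.5 were 97 of 119 in TASOR, 96 in TASOR2, 106 in MPP8, 96 in PPHLN1 and 112 in untransduced cells. The median difference was 0.25 in TASOR, beside 0.16 for all tested genes with a mean above 2. It was 0.23 beside 0.17 in PPHLN1, 0.13 beside 0.12 in MPP8, 0.10 beside 0.04 in untransduced cells, and -0.04 beside 0.08 in TASOR2. The members' median thus lay above that of other genes in TASOR by 0.09 and below it in TASOR2 by 0.12, shifts much smaller than the rule. These shifts moved with the processing. Measured from all 16433 tested genes, the TASOR shift was 0.083, and it was 0.035 with quantile normalization and 0.021 with untransduced cells as the control. The TASOR2 shift was -0.11, and it was -0.050 and -0.18 in the same way. The PPHLN1 shift of 0.052 became -0.022 against untransduced cells, and the MPP8 shift of 0.011 became -0.011 with quantile normalization and -0.042 against untransduced cells, so neither has a settled direction.

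**Figure D3:**
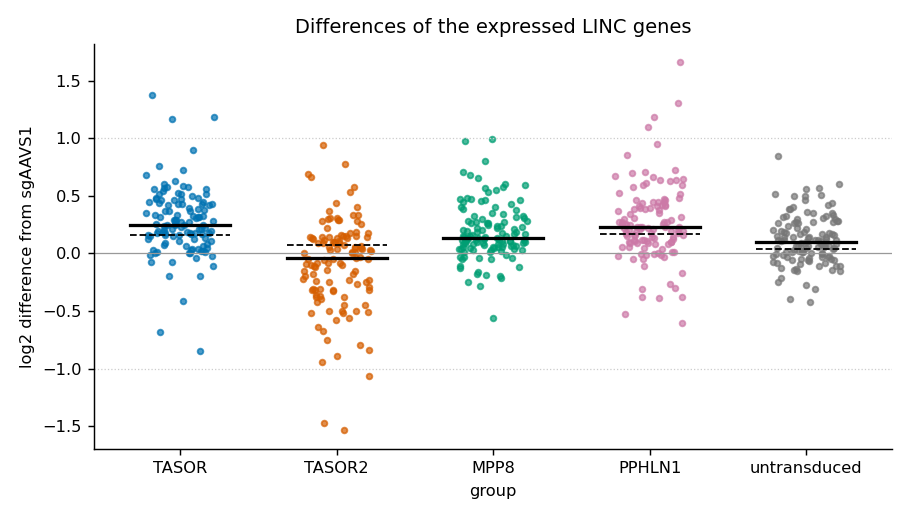
Log2 difference from sgAAVS1 of each of the 119 expressed LINC genes in the 4 knockdowns and in untransduced cells. Solid bars are the medians of these genes, dashed bars those of all tested genes with a mean above 2, and dotted lines mark differences of 1 and -1. The solid bar is below the dashed bar in TASOR2 (-0.04 and 0.08) and above it in TASOR (0.25 and 0.16).

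Compared directly, 10 members were higher in TASOR than in TASOR2 by the rule and none lower (8.4%), beside 3.18% and 0.526% of tested genes with a mean above 2. At the lower level the share was 12.1% against 12.9% of tested genes. At the smaller rule 42 were higher and 1 lower (35.3% and 0.84%), beside 14.1% and 2.51%. Among the members above 4 the share higher was 26.2% against 9.2%, without a match for level within that range. Among the lower ones it was 44.8% against 36.9%. The largest differences were those of LINC00239 (2.06 ± 0.95), LINC00858 (1.62 ± 0.48), LINC01212 (1.57 ± 0.80) and LINC00663 (1.25 ± 0.52). The other 6 were LINC00957, LINC00896, LINC00884, LINC00263, LINC01305 and LINC01376, between 1.05 and 1.14. Each of these 6 fell short of 1 under quantile normalization, from 0.72 to 0.82, and LINC00663 at 0.90 did too. LINC01376 was a member by its TASOR mean alone, and LINC00239 by TASOR and PPHLN1. LINC00263 is OLMALINC, an RNA abundant in oligodendrocytes. It had means of 4.44 in untransduced cells, 4.22 in sgAAVS1, 4.79 in TASOR, 3.71 in TASOR2, 4.46 in MPP8 and 4.63 in PPHLN1. TASOR was highest and TASOR2 lowest, with the controls between them, and the same held for LINC00884 (4.24 and 3.15) and LINC01305 (3.56 and 2.49).

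The TASOR2 mean was the lowest of the 6 for 56 members (47.1%), beside 30% of tested genes with a mean above 2, and the highest for 11 (9.24%), beside 28.4%. The TASOR mean was the highest for 38 (31.9%, beside 23.2%) and the PPHLN1 mean for 39 (32.8%, beside 29.3%). The sgAAVS1 mean was the lowest for 35 (29.4%, beside 35.2%). No test stands behind these shares, since the 6 means are single values. Nor were the shares matched for level. A highest mean of at most 4 was found in 58 of the 119 members, against 2400 of the 13699 tested genes.

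No member passed the rule between MPP8 and PPHLN1. Among tested genes with a mean above 2, 0.197% were higher in MPP8 and 0.109% lower, so none in 119 is near those shares. Within 0.5 of each other were 94.1% of members and 97.3% of those tested genes. At the smaller rule 1 was higher and 5 lower in MPP8 (0.84% and 4.2%), beside 0.759% and 1.45%. LINC00665 was lower in MPP8 by -0.68 ± 0.22, LINC01124 by -0.61 ± 0.41, LINC00885 by -0.58 ± 0.26, LINC00624 by -0.53 ± 0.37 and LINC00235 by -0.51 ± 0.33. LINC00431 was 0.70 ± 0.52 higher in MPP8.

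Base composition moved with some of these differences. Transcript GC content was found for 117 members, with a median of 50.2%, the same as that of the other tested genes with a mean above 2. Across the 117, the Spearman correlation of GC content with the difference from sgAAVS1 was 0.25 in TASOR, -0.23 in TASOR2, 0.15 in MPP8, 0.28 in PPHLN1 and -0.00 in untransduced cells. Across 12337 tested genes with a mean above 2 it was 0.17, -0.62, 0.25, 0.28 and -0.40. The points share their libraries and are not independent, so these are descriptions. In TASOR2 the slope of the members was in the direction of other genes but looser. Split by GC content into 3 sets of 39, the members' median TASOR2 difference was 0.09, -0.04 and -0.16 from low to high GC, and TASOR2 was the lowest group in 13, 19 and 24. In TASOR the medians were 0.18, 0.29 and 0.29. LINC00896 at 61.8% GC differed by -0.94 ± 0.34 in TASOR2, LINC00482 at 62.3% by -0.89 and LINC01023 at 63.5% by -0.64. LINC01212, LINC00239 and LINC00663, the 3 past the rule, had 42.6%, 50.5% and 50.8%, and stayed past it with the GC trend removed. With the GC trend removed, the members' median shift from all tested genes was -0.16 in TASOR2, beside -0.11 as reported. For TASOR against TASOR2 it was 0.25, beside 0.20, and in TASOR 0.084, beside 0.083. The part of base composition in the TASOR2 result was not tested beyond this.

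**Figure D4:**
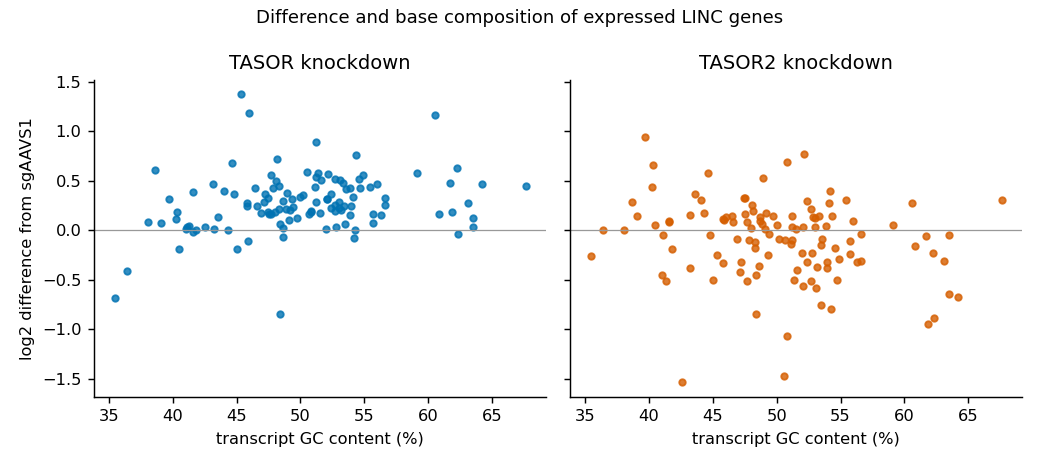
Log2 difference from sgAAVS1 in the TASOR (left) and TASOR2 (right) knockdowns against transcript GC content in percent, for the 117 expressed LINC genes with a GC value. Points tilt slightly upwards with GC in TASOR (Spearman 0.25) and downwards in TASOR2 (-0.23).

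Neighbouring genes were compared with the members. Of the 119, 47 overlapped another gene row, 39 of them on the opposite strand and 13 on the same strand, some on both, and 23 had the start of an opposite-strand gene within 1 kb of their own. Over the 95 members whose nearest expressed gene did not overlap them, the Spearman correlation of the member's difference with its neighbour's was -0.06 in TASOR, 0.25 in TASOR2, 0.08 in MPP8 and 0.12 in PPHLN1. Over the 23 pairs of starts within 1 kb it was 0.04, 0.03, -0.09 and 0.38. Both genes of a pair share libraries and depth, and nearby genes can share GC content.

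Chromosome 19 carries 5 members. LINC00662 was well expressed, with means between 5.96 in sgAAVS1 and 6.33 in TASOR2, and LINC01002 lay between 3.87 and 4.14 over all groups. LINC00663 and LINC00665 passed the rule in opposite directions, as described. LINC01534 (chr19:36685440-36687449, minus strand) is now named ZNF567-DT as a divergent transcript of ZNF567, whose start is 163 bp away. It had means of 1.88 in untransduced cells, 2.15 in sgAAVS1, 2.08 in TASOR, 2.55 in TASOR2, 2.62 in MPP8 and 2.78 in PPHLN1. TASOR lay between the controls and the other knockdowns above them, and PPHLN1 (0.63 ± 0.45) was the one past the smaller rule. ZNF567 was 1.16 ± 0.23 higher in TASOR2, 0.79 ± 0.24 in PPHLN1, 0.60 ± 0.25 in MPP8 and 0.39 ± 0.25 in TASOR.

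LINC00665 and LINC01534 lie in 1 stretch of 18 expressed genes that holds many zinc finger genes. Of the 18, none passed the rule in TASOR, 2 were higher in TASOR2, 2 in MPP8 and 3 in PPHLN1, and none was lower. Of tested genes with a mean above 2, 0.599% were higher in TASOR, 1.07% in TASOR2, 0.861% in MPP8 and 1.35% in PPHLN1, without a match for level. The stretch was chosen around LINC00665 and LINC01534, and LINC00665 is itself among the 3 in PPHLN1. ZNF850 was higher in TASOR2 (1.36 ± 0.08), MPP8 (1.03 ± 0.09) and PPHLN1 (1.28 ± 0.08), and ZNF790 in MPP8 (1.04 ± 0.51) and PPHLN1 (1.16 ± 0.50). LINC00665 had the largest PPHLN1 difference of the stretch. ZFP14, 2735 bp beyond its start on the same strand, was 0.58 ± 0.30 higher in PPHLN1 and -0.03 ± 0.32 in TASOR, and ZNF146, the other side of LINC00665, 0.11 ± 0.08 higher in PPHLN1. LINC00665 was thus set apart from both flanking genes in PPHLN1 by more than counting error.

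**Figure D5:**
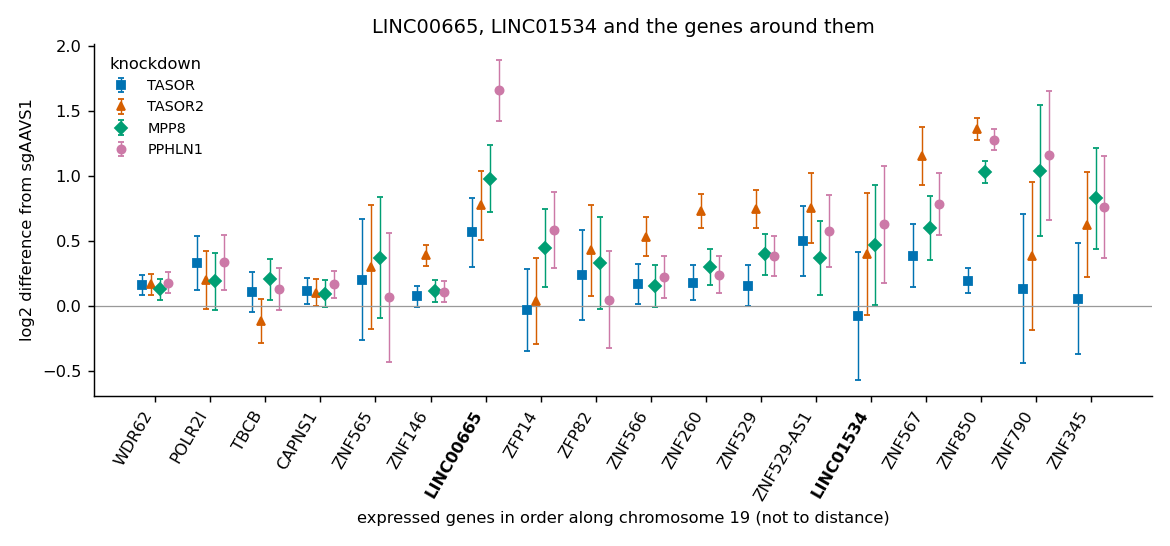
Log2 difference from sgAAVS1 in the 4 knockdowns for 18 expressed genes in their order along chromosome 19, with LINC00665 and LINC01534 in bold. Bars are 95% intervals for counting error alone. LINC00665 is highest in PPHLN1 (1.66), while ZNF146 beside it is at 0.11 and ZFP14 at 0.58.

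Other noncoding RNA classes were counted by the same rule. Of 67 LINC genes at or below the level of 2 but with a mean above 0, 6 were higher and 1 lower in TASOR, 2 and 2 in TASOR2, 2 and 1 in MPP8, 13 and 1 in PPHLN1, and 7 and 1 in untransduced cells. Among all 2734 tested genes at that level, 8.16% were higher and 1.54% lower in TASOR, 7.46% and 6.58% in TASOR2, 5.12% and 1.43% in MPP8, 9.8% and 2.56% in PPHLN1, and 6.73% and 1.02% in untransduced cells. The low LINC genes had 8.96% higher in TASOR, 2.99% in TASOR2, 2.99% in MPP8, 19.4% in PPHLN1 and 10.4% in untransduced cells. The other classes were counted among genes with a mean above 2, like the members. Of 241 genes named as antisense RNA, 4 were higher and none lower in TASOR, 2 higher and 11 lower in TASOR2, 3 and none in MPP8, and 8 and none in PPHLN1. These were 1.66% higher in TASOR, beside 0.599% of tested genes, 4.56% lower in TASOR2, beside 1.07%, 1.24% higher in MPP8, beside 0.861%, and 3.32% higher in PPHLN1, beside 1.35%, without a match for level. Their median differences were 0.29 in TASOR, -0.12 in TASOR2, 0.15 in MPP8 and 0.22 in PPHLN1, near those of the LINC genes. None of 17 SNHG genes, the hosts of small nucleolar RNAs, and none of 15 well characterised long noncoding RNAs passed in any knockdown. Of tested genes with a mean above 2, between 0.599% and 1.35% were higher in a knockdown and at most 1.07% lower. None in 17 or in 15 genes is near those shares. Of 8 microRNA host genes, 2 were higher in TASOR2, 1 in MPP8, 1 in PPHLN1 and 1 in untransduced cells, too few genes for a share to be read.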

How the data were processed

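Total RNA depleted of ribosomal RNA was sequenced from K562 cells in 14 libraries with a strand-preserving kit, per the labels' protocols. Reads were trimmed and aligned with cutadapt and Bowtie2 to hg38, per the submitters' processing notes. No source used here says how reads were counted, or whether by strand. The deposited table gives 1 mean log2 value per group scaled to library depth: the untransduced column is that mean, and the other 5 are ratios to it, which were multiplied back. At low levels the values were whole reads for 100% of values (tolerance 0.001), with 0 reads entered as 0.9, which gave the depth and the number of libraries per mean (2, and 3 for sgAAVS1).

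Of 35805 rows, 16433 genes had a mean above 0 and were tested, and 13699 of them had a mean above 2. The rule of size needs a difference of at least 1, a higher mean above 0 and a 95% Poisson interval without 0. Intervals cover counting error only, since group means give no spread between libraries. Reads carry no molecular identifiers, so copies of a molecule are not told apart and the intervals can be too narrow. With group means alone, the planned limma fit could not be run, and no p-value is given. The named genes were those past the rule, the 10 highest, the 6 steadiest with all means above 4, the 5 on each side of the level of 2, the protein-coding ones, those on chromosome 19, the nearest genes and the 4 targets. LINC00909 and members named at the smaller rule were chosen after their values were seen. The members and lists were chosen with earlier results of these data known. Transcript GC and exon length came from GENCODE 29, and symbols and promoters from RefSeq GRCh38.p14. Scripts used Python 3.11.15, numpy 2.4.6, pandas 2.3.3, scipy 1.17.1, statsmodels 0.14.6 and matplotlib 3.10.9, and were tested on simulated data. Alternatives were another scaling, control, threshold or level. 1 marker gene fixed for the check of cell types is not reported here.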

Additional observations from a re-analysis of the deposited data

How the results depend on the processing

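Under the alternatives, 86 recomputed counts of members stayed within 1.5 times of the reported count and 48 did not. Many of the 86 were counts of 0 that stayed at 0, which a stricter rule or a higher level cannot raise. Where the reported count was above 0, most recomputed counts moved by more than 1.5 times. In this count, member differences were recomputed only where they had passed the rule. None of these changed sign, and 68 recomputed values moved by less than counting error and 2 by more. Both of the 2 were against untransduced cells (LINC00624 at 0.25 and LINC00665 at 1.20, both in PPHLN1). The median shift of the members from all tested genes changed sign in 3 recomputed values, moved by over 1.5 times in 9 and stayed in 13. It went from 0.011 in MPP8 to -0.011 with quantile normalization and -0.042 against untransduced cells, and from 0.052 in PPHLN1 to -0.022 against untransduced cells. Quantile normalization also gave 0.035 in TASOR, -0.050 in TASOR2, 0.017 in PPHLN1, 0.0069 in untransduced cells, 0.069 for TASOR against TASOR2 and -0.0047 for MPP8 against PPHLN1. Against untransduced cells TASOR was at 0.021 and TASOR2 at -0.18, and with the GC trend removed MPP8 was at 0.020. With median centring, 1 member was higher and 1 lower in TASOR, 2 were higher in PPHLN1, and 6 were higher in TASOR than TASOR2. Quantile normalization gave 1, 1, 2 and 3. With a difference of at least 1.5, 0 were higher in TASOR, 1 lower in TASOR2, 1 higher in PPHLN1 and 3 higher in TASOR than TASOR2. Of 94 members with a mean above 3, 1 was lower in TASOR2 and 6 higher in TASOR than TASOR2. Of 100 with all 6 means above 2, 1 was higher in TASOR, 0 lower in TASOR2 and 4 higher in TASOR than TASOR2. LINC01212, LINC00239 and LINC00663 had TASOR2 means below 2, so the set of 100 left them out and its 0 was fixed in advance. No share of tested genes was computed for the sets of 94 and 100. Of 186 with a mean above 0, 9 were higher and 1 lower in TASOR, 2 and 5 in TASOR2, 2 and 1 in MPP8, 17 and 1 in PPHLN1, 7 and 1 in untransduced cells, 19 and 3 in TASOR against TASOR2, and 3 lower in MPP8 than PPHLN1. Of all 16433 tested genes, 1.86% were higher and 0.31% lower in TASOR, 2.13% and 1.98% in TASOR2, 1.57% and 0.268% in MPP8, and 2.76% and 0.596% in PPHLN1. The shares were 1.31% and 0.219% in untransduced cells, 5.11% and 1.31% in TASOR against TASOR2, and 0.828% lower in MPP8 than PPHLN1. None is matched for level. Against untransduced cells, 6 were lower in TASOR2 and 1 higher in PPHLN1.

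At a difference of at least 0.5, added after seeing the data, 19 were higher and 2 lower in TASOR, 6 and 15 in TASOR2, 10 and 1 in MPP8, 21 and 2 in PPHLN1, 5 higher in untransduced cells, 42 and 1 in TASOR against TASOR2, and 1 and 5 in MPP8 against PPHLN1. With the GC trend removed, also added, 1 was lower in TASOR, 2 higher in PPHLN1 and 6 higher in TASOR than TASOR2. Apart from the changed thresholds and levels, which change what is counted, the cause was not tested. LINC00858, LINC01212, LINC00239 and LINC00665 passed under both scalings, GC removal and the untransduced control. LINC01376, LINC01124, LINC00624 and LINC00663 did not pass under every scaling. No paired analysis was possible because the table holds only group means, and leaving out single libraries was not run for the same reason. At the level of 2, a mean rests on 23.4 to 29.6 reads per library, which limits differences near 1.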
